A study of Mus musculus with 30 samples.

Results

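Tnfsf11, Areg, Wnt4 and Rspo1 encode secreted or membrane-bound ligands that act between neighbouring cells of the mammary epithelium. They were grouped as paracrine effectors of progesterone and estrogen, but the level of Rspo1 ran against that of hormone-sensing markers in luminal cells, as given with the correlations. They were taken by name, and all 4 were present among the 11137 genes of the deposited table. The table holds 30 libraries of sorted luminal or basal mammary cells from 17 female mice, which fall into 8 groups by lineage, stage (virgin or parous) and genotype. Control mice carried K8rta:TETO CRE:mTmG and are called K8imTmG, and mice that also carried RANK fl/fl are called K8iΔRank. All mice of both genotypes received doxycycline at 1 mg/ml in the drinking water between weeks 3 and 8 of age, per the labels, on a mixed background. The K8 promoter restricts Cre to luminal cells, so that basal cells of K8iΔRank mice keep the gene for Rank, the receptor of the Tnfsf11 product. Parous mice had completed pregnancy and involution. Per the study's methods, pups were withdrawn during lactation in control dams, whereas K8iΔRank dams failed to lactate, so in parous mice genotype and nursing history cannot be told apart. The labels used here do not give the number of pregnancies. The luminal groups held 3 virgin K8imTmG, 3 virgin K8iΔRank, 5 parous K8imTmG and 4 parous K8iΔRank mice, and the basal groups held 3, 4, 4 and 4.

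Estrogen and progesterone receptors are confined to a subset of luminal cells, the hormone-sensing cells, and most proliferation occurs in cells that lack these receptors. Areg (amphiregulin) is a ligand of the epidermal growth factor receptor Egfr that is shed from the membrane and is known as the mediator of estrogen action in the growing duct. Tnfsf11 encodes Rankl, and Wnt4 a Wnt ligand, both known as progesterone-dependent signals to neighbouring luminal and basal cells. Rspo1 (R-spondin 1) binds Lgr receptors and potentiates Wnt signals to basal cells.

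The 4 genes lie on 3 chromosomes in the GRCm39 assembly, by the GENCODE vM39 annotation. Tnfsf11 (ENSMUSG00000022015.10) spans chr14:78514885-78545490 on the minus strand with 5 exons in its canonical transcript, and Areg (ENSMUSG00000029378.7) spans chr5:91287451-91296291 on the plus strand with 6 exons. Wnt4 (ENSMUSG00000036856.6) spans chr4:137004373-137027037 with 5 exons, and Rspo1 (ENSMUSG00000028871.9) spans chr4:124879876-124902892 with 6 exons, both on the plus strand. The assay, QuantSeq, reads only the 3′ end of each transcript. The study also designed qPCR primers for Tnfsf11 and Rspo1, which are shown here because they read another stretch of the same transcripts. Each primer matched its canonical transcript at 1 site:
Tnfsf11 forward primer, exon 2, chr14:78537300-78537319: tgcaggaggatgaaacaagc
Tnfsf11 reverse primer, exon 4, chr14:78521751-78521771: catccaaccatgagccttcca
Rspo1 forward primer, exon 2, chr4:124885159-124885177: ctgagctggacacacatcg
Rspo1 reverse primer, exon 3, chr4:124898803-124898822: aacagagctcacagcccttg

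The reverse primers lie 1625 bases (Tnfsf11) and 1210 bases (Rspo1) before the annotated end of the transcript, so the libraries count a different portion of these messages than the primers amplify. By qPCR the study reported lower Rank and Rspo1 and higher Rankl in sorted luminal cells of virgin K8iΔRank mice than in controls.

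Because Areg and Wnt4 varied together across luminal libraries, as described in the account of the correlations, the promoters of the 4 genes were searched on both strands for the letters of hormone and cyclic AMP response elements. RefSeq promoters (GRCm38.p6, 250 bases before to 50 bases after the start site) matched all 4 symbols. None of the 4 held the estrogen response palindrome (the half-site GGTCA, 3 free bases and its complement TGACC), which was present in 0.074% of 27025 promoter-bearing symbols, or the steroid receptor palindrome (GNACA, 3 free bases and TGTNC), present in 0.537%. Areg alone of the 4 held the palindromic cyclic AMP response element, present in 2.03% of symbols. It began 61 bases before the start site and is in capitals in the first line. The letters TATAAA, on either strand, were anywhere in the window in 15.7% of symbols. Areg and Tnfsf11 held them, 31 and 32 bases before the start, and the match is in capitals in the 2 lines after it:
Areg, chr5:91139527-91139556, plus strand: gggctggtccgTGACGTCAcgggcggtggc
Areg, chr5:91139556-91139585, plus strand: ctccagcgggtcTATAAAagcagcaggtgc
Tnfsf11, chr14:78308058-78308087, minus strand: ctctccacgaggTTTATAagagttagggct

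These matches describe the letters of the windows and do not show binding.

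Depth ranged from 340445 to 3130419 reads, so that 1 read was worth 0.381 to 5.43 normalized counts (read counts divided by a size factor for each library). Sorted lineages carried their markers: the summed level of 8 basal markers was 60.4 to 309 normalized counts in luminal and 9714 to 16393 in basal libraries. Tnfrsf11a, the gene for Rank, was 14.1 ± 4.51 (SD) normalized counts in virgin K8imTmG and 18.1 ± 6.16 in virgin K8iΔRank luminal cells (n = 3 each), and 39.5 ± 22.1 (n = 5) and 33.7 ± 5.82 (n = 4) in parous ones, but where the 3′ reads lie relative to the deleted part of the gene was not tested, so these values do not check the deletion. The libraries also split by Clec2d, a lectin gene, which was at 0.641 to 8.68 normalized counts in 16 libraries and at 65.6 to 199 in 14. The 3 virgin K8imTmG luminal libraries were all on the low side and the 3 virgin K8iΔRank ones all on the high side. In the parous luminal groups, mice 494 and 557 of K8imTmG were on the high side and the other 7 libraries on the low side. In virgin basal cells the 3 K8imTmG libraries were all on the high side and the 4 K8iΔRank ones all on the low side. Between genotypes of virgin luminal and virgin basal cells, and between virgin and parous K8iΔRank luminal cells, the split and the comparison cannot be told apart. In bulk samples, fewer cells of a type and less RNA per cell cannot be told apart either.

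All 4 ligands were higher in luminal than in basal cells. In that comparison 28.7% of the 11133 genes tested were called higher, so that the count of 4 is read against that share. The count includes Tnfsf11 and Rspo1, which met the minimum level for testing only through luminal libraries. A call throughout is an adjusted p under 0.05 in limma, with Benjamini-Hochberg adjustment over all genes tested, and log2 differences are on the scale of log2(normalized count + 1). Areg was at 71.5 (lowest), 630 (median) and 1729 (highest) normalized counts in the 15 luminal libraries, and at 4.19, 22.0 and 61.8 in the 15 basal ones. Every luminal library lay above every basal library, with a log2 difference of 4.96 (SE 0.26, adjusted p = 4.99e-16). Wnt4 was at 34.4, 233 and 459 in luminal and at 0, 11.2 and 23.6 in basal libraries, again without overlap. Its log2 difference was 4.48 (SE 0.31, adjusted p = 2.60e-13). Of all genes tested, 3.42% were higher in luminal cells without overlap of the groups, and Areg and Wnt4 were among them.

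Tnfsf11 and Rspo1 overlapped between the lineages. Tnfsf11 was at 0, 13.4 and 148 normalized counts in luminal libraries. In basal libraries it was at 0 at the lowest and at the median and at 3.10 at the highest, and 9 of the 15 held no read and all 15 together held 12 reads. Tnfsf11 entered the test only through luminal libraries, as 9 of them exceeded 10 normalized counts against 0 basal ones. Its entry was therefore tied to the direction of the difference. The log2 difference was 3.19 (SE 0.58, adjusted p = 2.68e-05), and because basal values were at or near 0 its size depended on the pseudocount and the tool. It was 3.71 with a pseudocount of 0.5, 2.09 with a pseudocount of 4, 5.10 in DESeq2 and 5.61 in edgeR. Rspo1 was at 0, 16.4 and 352 in luminal and at 0, 4.30 and 16.3 in basal libraries, a log2 difference of 1.89 (SE 0.56, adjusted p = 0.00517). It exceeded 10 normalized counts in 9 luminal and 3 basal libraries, where 8 libraries were needed. The entry of Rspo1 was therefore tied to the direction of the difference as well. With the side of the Clec2d split as a covariate the Rspo1 difference was 1.35 and no longer passed (adjusted p = 0.0572). The luminal level of Rspo1 rested on some of the groups: its mean in virgin K8iΔRank luminal cells, 4.67 ± 4.10, lay under the means of 3 of the 4 basal groups. Within the 13 mice that gave both lineages, the luminal library was higher in 13 of 13 for Areg and for Wnt4, and in 11 of 13 for Tnfsf11 and for Rspo1. The plot of the values by library shows these ranges.

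**Figure D1:**
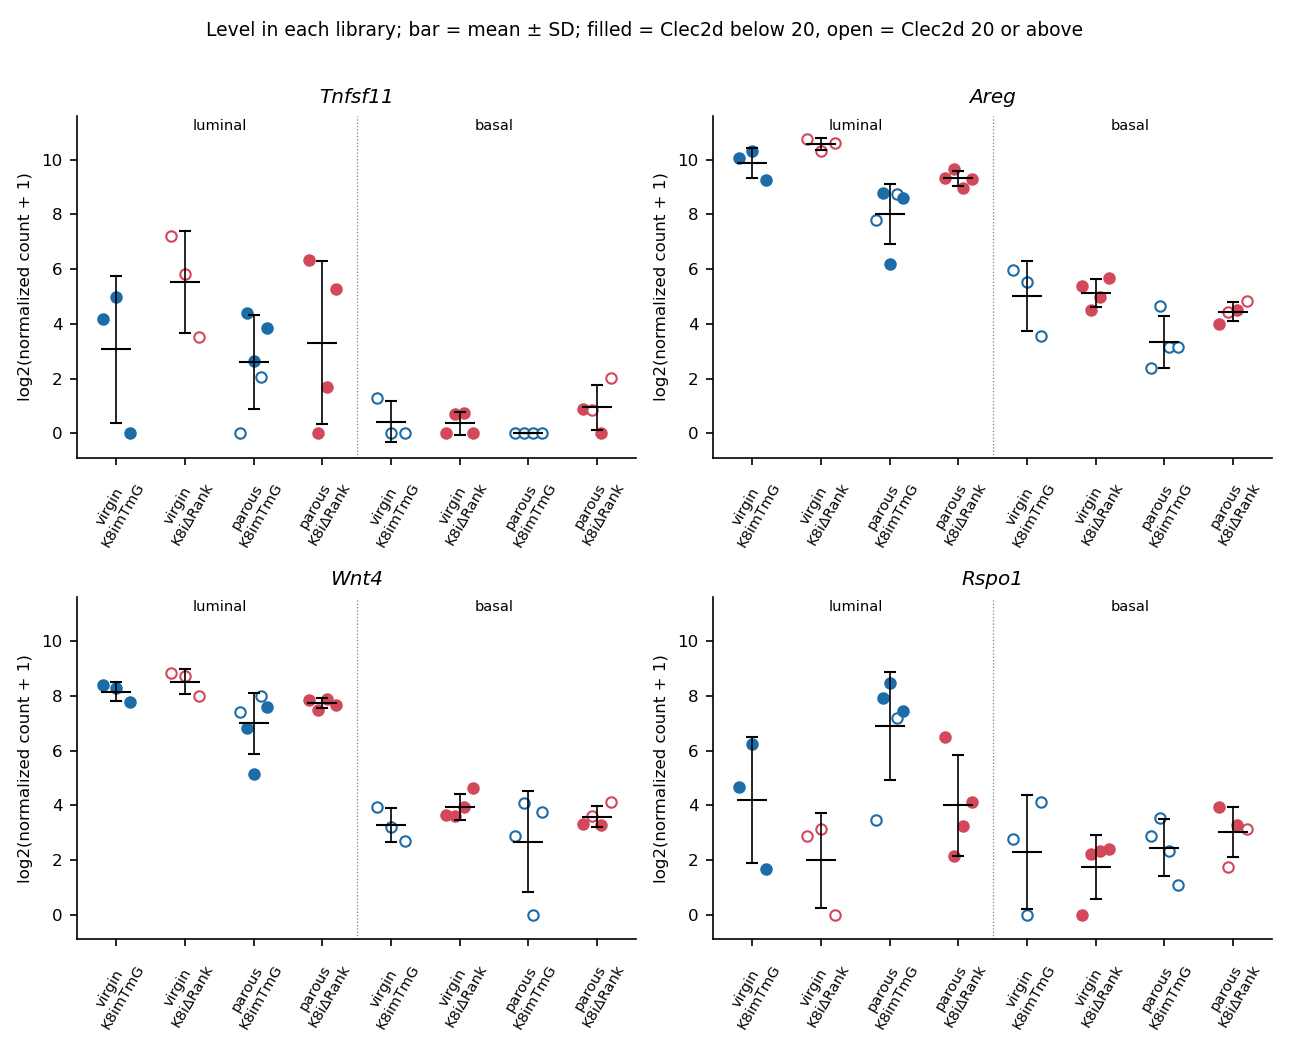
Level of each gene as log2(normalized count + 1) in each of the 30 libraries (points) of the 8 groups, with the mean and SD of the group (horizontal bar and whiskers). Blue points are K8imTmG, red points K8iΔRank, and open points have Clec2d at 20 or above; Areg and Wnt4 lie higher in every luminal than in every basal library, while Tnfsf11 and Rspo1 range from 0 to 148 and 352 normalized counts among luminal libraries.

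Several receptors of these ligands were on the basal side. Egfr, the receptor of amphiregulin, was lower in luminal cells by a log2 difference of -2.57 (adjusted p = 1.19e-10). The R-spondin receptors Lgr5 (log2 difference -5.72, adjusted p = 8.41e-18) and Lgr4 (-2.99, adjusted p = 2.39e-12) were lower in luminal cells as well. Tnfrsf11a differed by -1.39 (adjusted p = 2.52e-07), and Tnfrsf11b, the gene for the decoy receptor of Rankl, by -4.54 (adjusted p = 2.85e-13). All 9 tested genes of the list of R-spondin receptors and Wnt targets were lower in luminal cells, with a median of -2.69 where the median of all genes was 0.04, and 27% of all genes were called lower. They included Nkd1 (-5.27), a feedback inhibitor of Wnt signals, and Procr (-2.69), a surface marker of basal cells. Of 19 further Wnt ligands, receptors and secretion genes, 3 were higher and 11 lower (median -0.46). The Wnt ligand genes Wnt7b and Wnt10a differed by 4.997 and -4.26, and the receptor genes Fzd7 and Fzd3 by -3.41 and -2.55.

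Other receptors of the epidermal growth factor family were on the luminal side. Erbb3 differed by 4.68 and Erbb2 by 2.02, and the ligand gene Btc by 4.35, so that 7 of the 11 tested genes of the amphiregulin list were higher and 2 lower (median 0.65). In the Rankl list 4 of 14 were higher and 3 lower (median -0.02). Elf5, a factor of alveolar commitment, differed by 4.94 and the cyclin gene Ccnd1 by 3.06. Of 11 genes of the steroid and prolactin response list, 7 were higher and 4 lower (median 2.53). The prolactin receptor gene Prlr differed by 5.59, and Id4, Adamts18 and Cxcl12 by -7.59, -6.24 and -5.99.

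Groups of luminal cells were next set in order of their mean level. For Areg the order was virgin K8iΔRank (1532 ± 223 normalized counts, SD, n = 3), virgin K8imTmG (985 ± 335, n = 3), parous K8iΔRank (648 ± 129, n = 4) and parous K8imTmG (308 ± 157, n = 5). Within virgin mice the genotypes did not overlap, nor did they within parous mice, but the virgin K8imTmG library of mouse 538 (614) lay within the range of parous K8iΔRank. Wnt4 gave the same order of means, with 379 ± 111, 290 ± 63.4, 214 ± 27.2 and 153 ± 82.7, and each neighbouring pair overlapped. For Tnfsf11 the order was virgin K8iΔRank (71.3 ± 69.8), parous K8iΔRank (29.6 ± 37.0), virgin K8imTmG (16.1 ± 15.5) and parous K8imTmG (8.38 ± 8.17), and the SD of every group was close to its mean or above it. For Rspo1 it was parous K8imTmG (185 ± 126), virgin K8imTmG (33.8 ± 37.3), parous K8iΔRank (29.3 ± 40.2) and virgin K8iΔRank (4.67 ± 4.10), with overlap between each neighbouring pair. The 4 basal groups overlapped their neighbours in the order of means for every gene, with means of 11.05 to 39.4 for Areg and 8.71 to 15.1 for Wnt4.

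Loss of luminal Rank was compared with controls to ask whether its ligand and the other paracrine genes changed in the cells that lost the receptor. None of the 4 passed the test in virgin luminal cells, where 0.984% of 10066 genes did. Areg was at 1076, 1265 and 614 normalized counts in the virgin K8imTmG mice 531, 533 and 538, and at 1729, 1290 and 1577 in the virgin K8iΔRank mice 821, 822 and 825. The K8iΔRank values were all above the control values, which 12.8% of genes also showed in that direction. On the log2 scale they differed by 0.69 (95% interval 0.01 to 1.37, adjusted p = 0.2196). Tnfsf11 was at 17.3, 30.9 and 0 in the same controls and at 148, 55.8 and 10.6 in K8iΔRank mice. Mice 821 and 822 lay above every control, whereas mouse 825 lay among them, and mouse 538 held no Tnfsf11 read among 1862812 reads, where a count of 0 allows up to 3 reads, or 2.21 normalized counts, by counting error alone. The log2 difference was 2.46 (95% interval -0.25 to 5.18, adjusted p = 0.268).

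Wnt4 was at 339, 313 and 219 in virgin K8imTmG and at 459, 425 and 252 in virgin K8iΔRank luminal cells. The groups overlapped through mouse 825, and the log2 difference was 0.36 (SE 0.30, adjusted p = 0.505). Rspo1 was at 24.4, 75.0 and 2.21 in the controls and at 6.31, 7.69 and 0 in K8iΔRank mice. Mice 531 and 533 were above every K8iΔRank library and mouse 538 was not, with a log2 difference of -2.20 (95% interval -4.76 to 0.36, adjusted p = 0.291). Rspo1 was tested here only through these 2 control libraries, the number needed above 10 normalized counts. At an unadjusted p under 0.05, 1 of the 4 (Areg) passed in limma. At an adjusted p under 0.05, DESeq2 and edgeR called 0 of the 4. The summed level of 9 hormone-sensing markers was 9900 to 12126 in the controls and 5726 to 10543 in K8iΔRank luminal cells, and its part in these differences was not tested.

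In parous luminal cells, too, none of the 4 passed, against 0.0991% of 10090 genes. Areg was at 223, 437, 71.5, 425 and 383 in the K8imTmG mice 494, 532, 534, 557 and 558, and at 639, 818, 505 and 630 in the K8iΔRank mice 787, 794, 798 and 830. All K8iΔRank libraries were higher than all controls, as were 5.49% of genes. On the log2 scale the difference was 1.30 (95% interval 0.25 to 2.35, adjusted p = 0.178). Rspo1 was at 10.1, 244, 352, 144 and 173 in K8imTmG and at 89.0, 3.44, 8.36 and 16.4 in K8iΔRank mice. With the exception of mouse 494, every control was above every K8iΔRank library, and the log2 difference was -2.90 (95% interval -5.21 to -0.59, adjusted p = 0.176). Among libraries on the low side of the Clec2d split, which leave out mice 494 and 557, it was -3.95 (adjusted p = 0.0576).

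Wnt4 was at 171, 114, 34.4, 252 and 192 in parous K8imTmG and at 233, 179, 238 and 205 in parous K8iΔRank luminal cells. Mouse 534 had the lowest Wnt4 and the lowest Areg of all 15 luminal libraries. The log2 difference of Wnt4 was 0.74 (95% interval -0.31 to 1.79, adjusted p = 0.402). Tnfsf11 was at 0, 19.99, 5.29, 3.195 and 13.4 in K8imTmG and at 78.8, 0, 2.23 and 37.2 in K8iΔRank mice. Mice 787 and 830 were above all controls, and mice 794 and 798 at or near 0. The log2 difference was 0.72 (95% interval -2.13 to 3.58, adjusted p = 0.777), and it was -0.28 without mouse 787. At an unadjusted p under 0.05, Areg and Rspo1 passed in limma, whereas DESeq2 and edgeR, at an adjusted p under 0.05, called 0 of the 4. By their p in limma, Areg ranked 1107 and Rspo1 1064 of 10090 genes. Summed hormone-sensing markers were 673 to 10198 in K8imTmG and 2741 to 7090 in K8iΔRank parous luminal cells, and their part in the result was not tested.

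**Figure D2:**
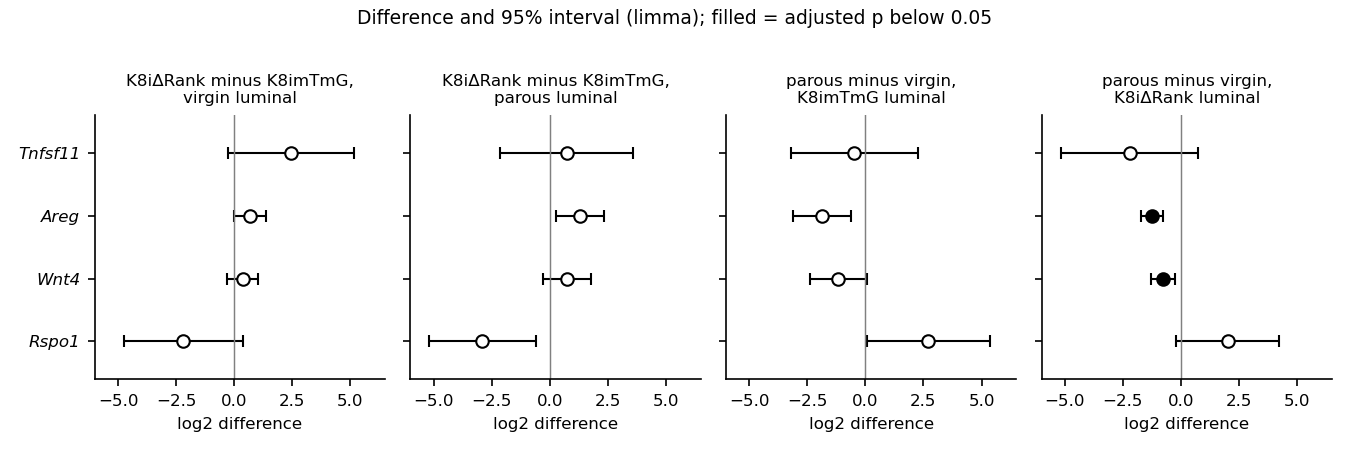
Log2 difference of each gene in 4 comparisons of luminal cells with its 95% interval in limma; the vertical line is no difference. Filled points passed at an adjusted p under 0.05: these are Areg (-1.25) and Wnt4 (-0.78) between parous and virgin K8iΔRank cells, where stage cannot be told apart from the Clec2d split.

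Of the 5 pathway lists together, 0 of 53 genes tested in virgin and 0 of 49 tested in parous luminal cells differed between genotypes in limma. In limma 13 and 16 had an unadjusted p under 0.05. At an adjusted p under 0.05, DESeq2 called 3 and 10 and edgeR 0 and 0. The difference between the genotype effects of the stages was tested as an interaction. It passed for none of the 4 ligands at an adjusted p under 0.05 in limma, DESeq2 or edgeR, with 0 at an unadjusted p under 0.05 in limma and 12.9% of 10262 genes called. The interaction estimates were 0.61 (SE 0.67) for Areg, 0.38 (SE 0.66) for Wnt4, -1.74 (SE 2.08) for Tnfsf11 and -0.70 (SE 1.75) for Rspo1.

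Parity was then compared within each genotype. In K8iΔRank luminal cells Areg and Wnt4 were lower in parous than in virgin mice, which were different animals. Of 10249 genes, 7.78% were called lower and 8.25% higher. All 3 virgin libraries were on the high side of the Clec2d split and all 4 parous ones on the low side. Depth was 814455 to 1158036 reads in virgin and 2214318 to 3130419 in parous libraries. Stage cannot be told apart from the split or from depth here. Areg was at 1729, 1290 and 1577 in virgin and at 639, 818, 505 and 630 in parous mice, with no overlap. Its log2 difference was -1.25 (SE 0.21, adjusted p = 0.00458). Wnt4 was at 459, 425 and 252 in virgin and at 233, 179, 238 and 205 in parous mice, also with no overlap, although virgin mouse 825 lay close to parous mouse 798. Its log2 difference was -0.78 (SE 0.23, adjusted p = 0.0414). Such a lack of overlap in this direction was shared by 13.7% of genes. With all 30 libraries in one fit, which shares the spread of the other groups, neither passed (adjusted p = 0.147 for Areg and 0.455 for Wnt4). Wnt4 also missed with no filter on low values (adjusted p = 0.0546) and without any 1 of the mice 787, 794, 798, 821, 822 or 830 (adjusted p of 0.0542 to 0.143).

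Tnfsf11 in K8iΔRank luminal cells was at 148, 55.8 and 10.6 in virgin and 78.8, 0, 2.23 and 37.2 in parous mice, with overlap and a log2 difference of -2.21 (SE 1.34, adjusted p = 0.275). Rspo1 was at 6.31, 7.69 and 0 in virgin and 89.0, 3.44, 8.36 and 16.4 in parous mice, a log2 difference of 2.001 (SE 1.001, adjusted p = 0.187). It was tested only through parous mice 787 and 830, the 2 libraries needed above 10 normalized counts. Among the pathway genes, 6 of 52 were higher and 5 lower. The steroid and prolactin response list had 3 of 9 lower and 0 higher (median -1.10, against 0.03 for all genes), namely the estrogen target Greb1 (-3.12, adjusted p = 0.00392), the estrogen receptor gene Esr1 (-1.30, adjusted p = 0.00803) and Id4 (-1.90, adjusted p = 0.0274). In the Wnt list 2 of 16 were higher and 2 lower (median -0.16): Wnt5b (1.51) and Wnt7b (1.16) were higher, and Fzd6 (-1.47) and Lrp5 (-2.01) lower. Called higher were Lgr6 (1.39), 1 of 3 R-spondin list genes, Rela (1.35) and Nfkb2 (1.08), 2 of 13 of the Rankl list, and Hbegf (1.20), 1 of 11 of the amphiregulin list. Of the 9 hormone-sensing markers 4 were lower (Greb1, Esr1, Foxa1 at -2.17 and Ly6a at -1.34), with summed levels of 5726 to 10543 in virgin and 2741 to 7090 in parous mice. The summed fibroblast markers went from 713 to 852 in virgin to 173 to 416 in parous mice, and the summed basal markers from 98.1 to 309 to 60.4 to 98.3. All 5 basal markers tested had negative differences (median -1.25), of which 1 was called. The part of any of these in the lower Areg and Wnt4 of parous mice was not tested.

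In K8imTmG luminal cells none of the 4 passed, where 2.2% of 10279 genes did. Areg was at 1076, 1265 and 614 in virgin and 223, 437, 71.5, 425 and 383 in parous mice, all lower, as were 9.86% of genes. The log2 difference was -1.86 (SE 0.56, adjusted p = 0.105), and it passed in DESeq2 (adjusted p = 0.0222) and with all 30 libraries in one fit (adjusted p = 0.0233). Wnt4 was at 339, 313 and 219 in virgin and 171, 114, 34.4, 252 and 192 in parous mice, overlapping through mouse 557, with a log2 difference of -1.16 (SE 0.55, adjusted p = 0.251). Rspo1 was at 24.4, 75.0 and 2.21 in virgin and 10.1, 244, 352, 144 and 173 in parous mice. All parous mice other than mouse 494 lay above all virgin mice, and the log2 difference was 2.70 (SE 1.19, adjusted p = 0.223). Without mouse 494 the Rspo1 difference was 3.56 (adjusted p = 0.0431), and on the low side of the Clec2d split alone, 3 mice against 3, it was 3.75 (adjusted p = 0.0429). Mouse 494 also had the highest summed hormone-sensing markers of the parous controls, 10198, against 673 to 3959 in the other 4.

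Tnfsf11 was at 17.3, 30.9 and 0 in virgin and 0, 19.99, 5.29, 3.195 and 13.4 in parous K8imTmG luminal cells, with a log2 difference of -0.47 (SE 1.24, adjusted p = 0.852) whose sign turned without mouse 494, 531 or 533. In limma Areg and Rspo1 had an unadjusted p under 0.05, and by p they ranked 730 and 2128 of 10279 genes. At an adjusted p under 0.05, DESeq2 called 1 of the 4 (Areg) and edgeR 0. Of the pathway lists, 3 of 52 genes were called. Named here after their values were seen, these were Greb1 (-3.94), Id2 (1.15) and Fzd7 (2.42). All 9 hormone-sensing markers had negative differences (median -2.13, against -0.01 for all genes), of which 1, Greb1, passed.

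In basal cells, where Rank was kept in both genotypes, the ligands were low and no difference passed. Areg was at 61.8, 45.5 and 10.9 in virgin K8imTmG mice 531, 538 and 568, the last from 2 reads, and at 40.4, 21.7, 30.5 and 50.5 in virgin K8iΔRank mice 820, 821, 822 and 825. These overlapped, with a log2 difference of 0.11 (SE 0.55, adjusted p = 0.916). In parous mice Areg was at 4.19, 24.1, 7.96 and 7.96 in K8imTmG and at 15.0, 20.7, 22.0 and 27.4 in K8iΔRank, a log2 difference of 1.11 (SE 0.46, adjusted p = 0.184). The K8imTmG values came from 2, 9, 2 and 7 reads and the K8iΔRank values from 26 to 53 reads. Wnt4 differed between genotypes by 0.67 (SE 0.50) in virgin and 0.91 (SE 0.78) in parous basal cells, and Rspo1 by 0.57 (SE 0.70) in parous ones. The share of genes called was 8.99% of 10616 in virgin basal cells, where genotype and the Clec2d split cannot be told apart, and 0.906% of 10592 in parous basal cells. Of the ligands tested, limma and edgeR called 0 of 2 in virgin and 0 of 3 in parous basal cells. In limma 0 and 1 (Areg) had an unadjusted p under 0.05, and by that p Areg ranked 1905 of 10592 genes. DESeq2 called 0 of 2 in virgin basal cells and gave no adjusted p for any of the 3 in parous ones. Tnfsf11 was left out of all tests within basal cells, and Rspo1 out of those that need virgin K8iΔRank basal cells, because too few libraries exceeded 10 normalized counts.

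Areg was lower in parous than in virgin basal cells by a log2 difference of -1.69 (SE 0.67, adjusted p = 0.470) in K8imTmG and -0.69 (SE 0.30, adjusted p = 0.497) in K8iΔRank mice, and neither passed. The K8imTmG libraries held 2 to 43 Areg reads in virgin and 2 to 9 in parous mice. In those comparisons 0% of 10538 and 0% of 10525 genes were called, and 9.2% and 9.84% had an unadjusted p under 0.05, Areg among them in both. DESeq2 called 44 and 91 genes and edgeR 8 and 0. None was a ligand, but DESeq2 gave no adjusted p for Wnt4 and Rspo1 in K8imTmG. Of the pathway lists limma called 0 of 59 in each, with 15 and 8 at an unadjusted p under 0.05. DESeq2 called 2 and 1 of them and edgeR 0, at an adjusted p under 0.05.

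Correlations between the ligands were computed for all 6 pairs over the 15 luminal libraries, on log2(normalized count + 1), with two-sided permutation p-values adjusted over the 6 pairs. Areg and Wnt4 rose and fell together, with Pearson r = 0.879 (adjusted p = 0.00054) and Spearman rho = 0.761 (adjusted p = 0.0106). The permutation crossed groups, and both genes had the same order of group means, so this p does not set shared group differences apart. Within groups, after the mean of each group was taken off, r was 0.769 (adjusted p = 0.0200) and rho 0.375 (adjusted p = 0.507). Here and in the other within-group values the permutation did not allow for the 4 estimated group means. Among the 10 libraries on the low side of the Clec2d split r was 0.937 (adjusted p = 0.00864), and the 5 on the high side were too few. Without the 2 libraries farthest from the median of Areg r was 0.729 (adjusted p = 0.0245), and leaving out single libraries gave 0.732 to 0.904. Mouse 534 marks the low end of both genes, and the 3 virgin K8iΔRank mice the high end of Areg. By r with Areg, Wnt4 ranked 4 of 9826 genes with a mean of at least 10 normalized counts in these libraries.

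No correlation of Tnfsf11 and Rspo1 passed in the pooled libraries (r = 0.230, adjusted p = 0.406; rho = 0.197, adjusted p = 0.480). Within groups they moved together, with r = 0.883 (adjusted p = 0.00012) and rho = 0.757 (adjusted p = 0.00756), where the permutation did not allow for the 4 estimated group means. In each of the 4 luminal groups the mouse with the lowest Tnfsf11 also had the lowest Rspo1. These were mouse 538 of virgin and mouse 494 of parous K8imTmG, and mouse 825 of virgin and mouse 794 of parous K8iΔRank. In that order they held 0, 0, 8 and 0 reads of Tnfsf11 and 3, 6, 0 and 7 reads of Rspo1. These low ends of both genes are thus at or near the floor, and the r within groups was not computed without these libraries. Among libraries on the low side of the Clec2d split the pooled r was 0.630 (adjusted p = 0.167), and without the 2 libraries farthest from the median of Tnfsf11 it was 0.076 (adjusted p = 0.874).

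Areg and Rspo1 ran in opposite directions in the pooled libraries, with r = -0.573 (adjusted p = 0.0661) and rho = -0.618 (adjusted p = 0.0484), but not within groups (r = 0.066, adjusted p = 0.940). Their r was -0.515 (adjusted p = 0.179) on the low side of the Clec2d split and -0.589 (adjusted p = 0.110) without the 2 farthest libraries. The other pairs did not pass by either coefficient. Their r was 0.443 for Tnfsf11 and Areg, 0.364 for Tnfsf11 and Wnt4 and -0.491 for Wnt4 and Rspo1, and the last was -0.048 without the 2 libraries farthest from the median of Wnt4.

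**Figure D3:**
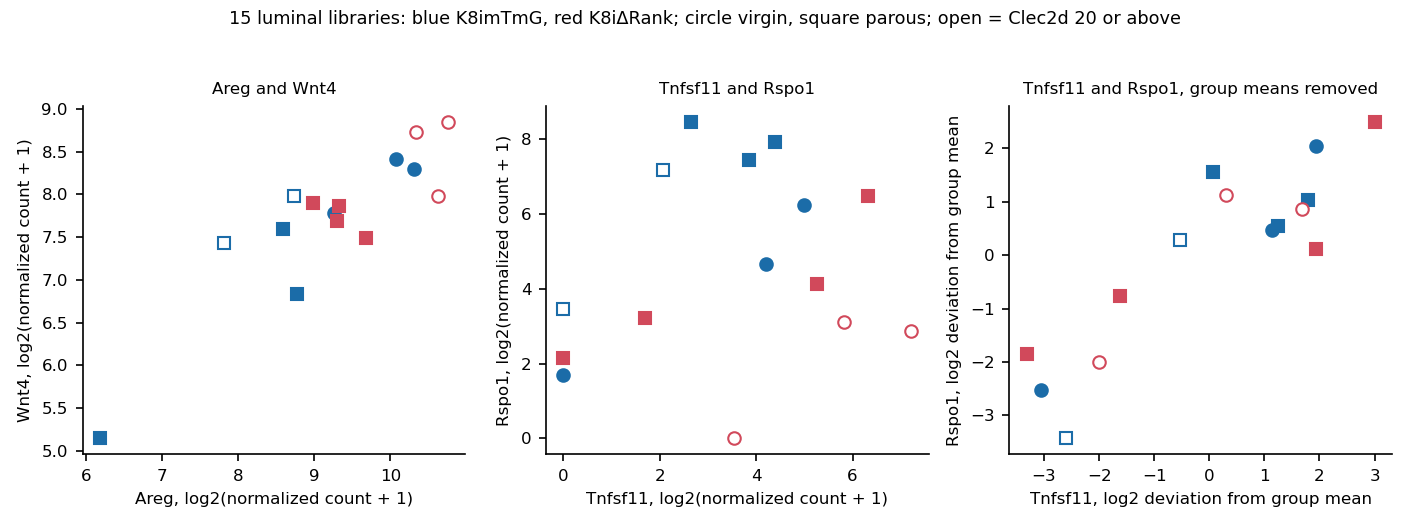
Each point is 1 of the 15 luminal libraries, with both axes in log2(normalized count + 1) in the left and middle plots and as the deviation from the group mean in the right one; blue is K8imTmG, red K8iΔRank, circles virgin, squares parous, and open points have Clec2d at 20 or above. Areg and Wnt4 rise together (r = 0.879), whereas Tnfsf11 and Rspo1 do so with the group means removed (r = 0.883) and not in the pooled values (r = 0.230).

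The genes whose luminal pattern was most like each ligand were found by Pearson r over the 15 luminal libraries, as a description with no test, since they are the highest of 9826 correlations in libraries that share group means and depth. For Tnfsf11 they were Calca (r = 0.863), which encodes calcitonin and is known in the mammary gland as a progesterone-responsive gene, Egr2 (0.852), an immediate early transcription factor, and Ints14 (0.845), a subunit of the Integrator complex. Calca was at 409, 620 and 8.83 normalized counts in virgin K8imTmG mice 531, 533 and 538, and at 3970, 3634 and 377 in virgin K8iΔRank mice 821, 822 and 825. In parous mice it was at 104, 506, 181, 550 and 582 in K8imTmG and at 888, 21.6, 555 and 807 in K8iΔRank. Mouse 538, with no Tnfsf11 read, had the lowest Calca, and mouse 821, the highest in Tnfsf11, the highest Calca.

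For Areg the nearest genes were Slc35f3 (0.929), Anxa3 (0.904), an annexin gene, and Prss23 (0.883), a serine protease gene. For Wnt4 they were Agtr1a (0.927), which encodes an angiotensin receptor, Ccdc92 (0.919) and again Prss23 (0.916). Prss23 was at 2.21 in mouse 534 and at 8.40 to 58.2 in the other luminal libraries. For Rspo1 they were C3 (0.954), the central complement component, Thbs1 (0.937), which encodes the matrix protein thrombospondin, and Phlda1 (0.916). C3 was at 113, 116 and 50.8 in virgin K8imTmG and 25.2, 46.1 and 14.5 in virgin K8iΔRank luminal cells. In parous mice it was at 52.1, 421, 408, 230 and 245 in K8imTmG and at 213, 49.1, 34.6 and 91.9 in K8iΔRank. The parous control of mouse 494, low in Rspo1, was also the lowest of its group in C3. Basal medians were above luminal ones for Egr2 (609 against 32.7), Prss23 (292 against 32.9) and Thbs1 (190 against 28.0). The same held for C3 (161 against 91.9) and Ints14 (16.3 against 13.2), and the reverse for Calca, Slc35f3, Anxa3, Agtr1a, Ccdc92 and Phlda1. The part of basal cells in these luminal values was not tested.

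The ligands were last set beside the summed level of 9 hormone-sensing markers, of which Prlr had the highest mean, and of 10 progenitor and alveolar markers in the same 15 luminal libraries, a family of 8 relations that was chosen after values had been seen. Rspo1 ran against the hormone-sensing sum (r = -0.737, adjusted permutation p = 0.00872; rho = -0.700, adjusted p = 0.0364). This held at r = -0.728 within groups, -0.736 on the low side of the Clec2d split and -0.582 without the 2 farthest libraries. Areg (r = 0.666, adjusted p = 0.0223) and Wnt4 (r = 0.751, adjusted p = 0.0110) ran with that sum, but their rho of 0.443 and 0.429 did not pass (adjusted p = 0.149 for both), and r was 0.280 and 0.165 without the 2 farthest libraries, so these relations rest on those libraries. Within groups r was 0.420 for Areg and 0.624 for Wnt4, and on the low side of the Clec2d split 0.834 and 0.866. For Tnfsf11 r was -0.207 (adjusted p = 0.530) and rho -0.348 (adjusted p = 0.232), and neither passed. Its r was -0.558 within groups, -0.278 on the low side of the Clec2d split and -0.395 without the 2 farthest libraries. With the progenitor and alveolar sum r was -0.048 for Tnfsf11, -0.557 for Areg, -0.412 for Wnt4 and 0.456 for Rspo1, with adjusted p of 0.866, 0.0604, 0.171 and 0.142.

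**Figure D4:**
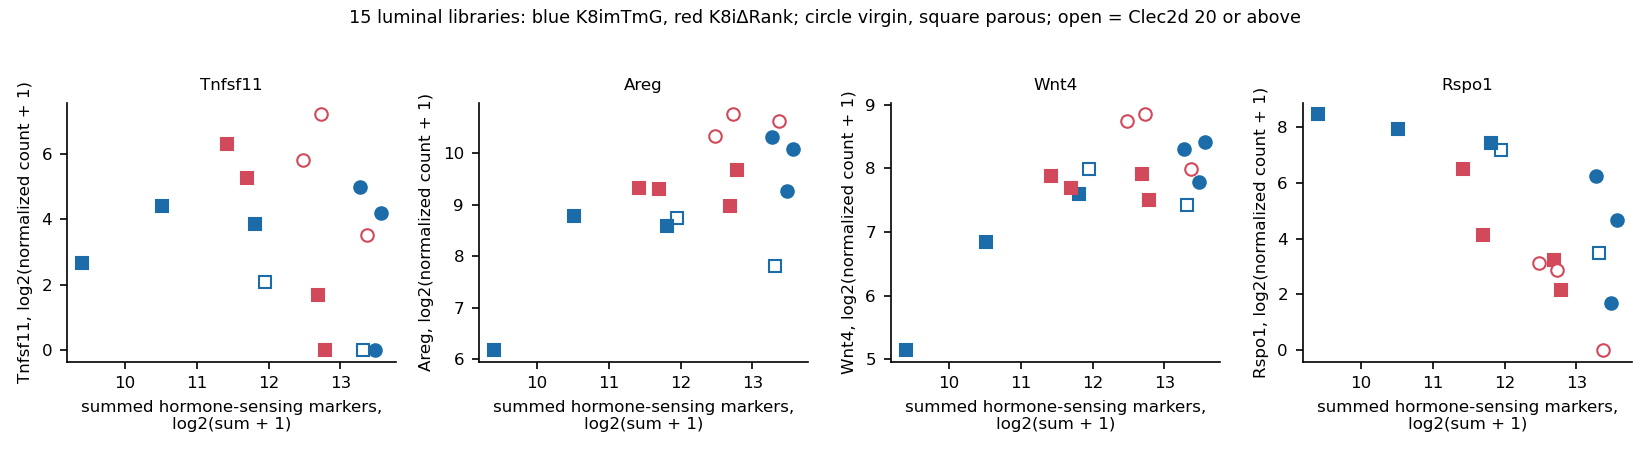
Level of each ligand (vertical axis, log2(normalized count + 1)) against the summed normalized counts of 9 hormone-sensing markers (horizontal axis, log2 of the sum + 1) in the 15 luminal libraries; blue is K8imTmG, red K8iΔRank, circles virgin, squares parous, and open points have Clec2d at 20 or above. Rspo1 falls as the sum rises (r = -0.737), and the single parous control at the far left, mouse 534 with a sum of 673, sets the low end for Areg and Wnt4.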

How the data were processed

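Luminal and basal mammary cells of virgin and parous mice were sorted, and libraries were made with the QuantSeq 3′ kit with molecular identifiers. The kit keeps the strand. Per the study's methods, the authors trimmed with BBDuk, extracted the identifiers with UMI-tools, aligned to GRCm39 with Bowtie2 and then deduplicated with UMI-tools. The remaining reads were turned back into FASTQ and passed to the nextpresso pipeline, with the Gencode vM26 annotation. Quality was checked with FastQC 0.11.9. The deposited values are a signal unit: counts the authors divided by DESeq2 size factors, for genes they state exceeded 10 in at least 25% of samples. Dividing by each library's smallest step gave whole reads for 100% of values within a tolerance of 0.01. All columns were mapped to samples (0 left out). Each library of a group came from another mouse, by the mouse number in the labels. Depth, the sum of recovered reads over the genes of the table, was 340445 to 3130419 reads per library.

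The 4 genes and all lists were chosen with earlier results of these data known. Comparisons used limma 3.58.1 with a mean-variance trend on log2(value + 1), over genes above 10 in 25% of the libraries compared, with the groups compared as the samples of each fit, an adjusted p under 0.05 and intervals at the 95% level. Luminal and basal libraries of the 13 mice in both share a mouse number in the labels; their deviations from the group means correlated at -0.338 to 0.465 over 4728 genes, above 0.1 in 7 of 13, and blocked fits were alternatives, as were pseudocounts of 0.5 and 4, no filter, a mean of at least 50, count tests on the reads so obtained (edgeR 4.0.16, DESeq2 1.42.0), the 4 shallowest libraries left out, all libraries in one fit, sides of the Clec2d split (20 normalized counts) and each mouse left out. Correlation p-values used 100000 permutations. Genes named are the 4, the 3 nearest to each by r, and list genes called beside a member, at most 4 per list by lowest p. Floors of 3 reads and intervals cover counting error only. Tests were tried on simulated data. Scripts ran in R 4.3.3 and in Python 3.11.15 with scipy 1.17.1, matplotlib 3.10.9, pandas 2.3.3 and numpy 2.4.6.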

Additional observations from a re-analysis of the deposited data

Results flagged for a closer look

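In each gene and each group of 4 or 5 libraries (20 groups in all), the gap of the highest and the lowest library to its neighbour was set against the range of the group on the log2 scale. In 2 groups that share was above Dixon's critical value, both times for a low library of Rspo1, and chance gives about 1 in 20. In luminal cells of parous K8imTmG mice, mouse 494 (10.1 normalized counts) was apart by 0.743 of the range. In basal cells of virgin K8iΔRank mice, mouse 820 (0 normalized counts) was apart by 0.931 of the range, where 1 read in the group was worth 0.620 to 1.15 normalized counts. No cause was tested.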

How the results depend on the processing

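Of 553 values of the 34 member differences under alternatives, 521 kept their direction and side of the threshold. The replicate block left all 4 lineage calls in place: with the mouse as a block the log2 differences were 4.95 (Areg), 4.47 (Wnt4), 3.19 (Tnfsf11) and 1.90 (Rspo1), and with the mouse as a fixed term in the 13 paired mice 4.83, 4.30, 3.12 and 2.13; 6327 and 5289 genes were called. The cause of the following changes was not tested. With Clec2d as a covariate Rspo1 fell to 1.35. On the low side of the split Tnfsf11 turned to -0.32 between parous luminal genotypes and to 0.57 for parity in K8imTmG, Rspo1 reached 3.75 there, and 42 and 1285 genes were called, whereas on the high side 0 were called between parous basal genotypes. DESeq2 and edgeR turned Areg in virgin basal cells to -0.28 and -0.30 and the Rspo1 interaction to 0.20 and 0.27, and edgeR and a pseudocount of 4 turned Rspo1 for parity in K8imTmG basal cells to -0.35 and -0.060. Areg for parity in K8imTmG luminal cells passed in DESeq2 (-1.66) and in one fit of all 30 libraries (-1.86), where Areg (-1.25) and Wnt4 (-0.78) in K8iΔRank did not, and Wnt4 (-0.78) missed with no filter. With group means removed r was 0.883 for Tnfsf11 and Rspo1 and 0.066 for Areg and Rspo1.

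Counts of called genes moved more. In order of virgin luminal, parous luminal and parous basal genotype, parity in K8imTmG luminal, K8imTmG basal and K8iΔRank basal cells, and the interaction, DESeq2 called 648, 611, 645, 1060, 44, 91 and 1990 (limma 99, 10, 96, 226, 0, 0 and 1326). The one fit of 30 libraries called 188, 97 and 360 for the same genotype comparisons, 2155 in virgin basal cells, and 851, 406, 56 and 5 for parity (luminal and basal, K8imTmG before K8iΔRank). EdgeR called 20 (parous luminal genotype) and 8 (parity, K8imTmG basal). No filter called 5, 11 and 106 for virgin luminal and parous basal genotype and K8imTmG luminal parity. A mean of 50 called 275 (parous basal genotype) and 3070 (lineage), and a pseudocount of 4 called 186 (parous basal genotype) and 2 (parity, K8imTmG basal).

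Leaving out 1 mouse gave these ranges. Areg between virgin basal genotypes ranged from -0.62 to 0.58, Wnt4 and Rspo1 interactions from -0.086 to 0.62 and -1.72 to 0.56, Tnfsf11 between parous luminal genotypes from -0.28 to 1.83. For parity in K8imTmG, Tnfsf11 and Rspo1 in luminal cells ranged from -2.003 to 0.50 and 1.44 to 3.73. Wnt4 and Rspo1 in basal cells ranged from -1.07 to 0.29 and -0.98 to 0.62. That Rspo1 range rests on 5 fits, because without mouse 534 or 568 the gene missed the minimum level for testing. Wnt4 for parity in K8iΔRank ranged from -1.05 to -0.62, and r of Areg and Rspo1 from -0.657 to -0.432. Called genes ranged from 0 to 247 and 0 to 21 (virgin and parous luminal genotype), 281 to 953 and 0 to 1050 (basal), 3 to 732 and 729 to 1570 (luminal parity), 0 to 4 and 0 to 1 (basal parity) and 336 to 1533 (interaction). No call was made or lost in the next 5 in the fits that tested them, but their size ranged widely. Between virgin luminal genotypes Tnfsf11 ranged from 0.93 to 3.46 and Rspo1 from -3.46 to -1.20. For parity in K8iΔRank luminal cells Tnfsf11 ranged from -3.21 to -1.10 and Rspo1 from 1.003 to 2.62. The Tnfsf11 interaction ranged from -2.74 to -0.21. Rspo1 was tested in only 4 of these fits between virgin luminal genotypes and in 5 for parity in K8iΔRank luminal cells. Without mouse 531 or 533 in the former, or 787 or 830 in the latter, it missed the minimum level for testing. Its 2 ranges therefore do not cover the fits without these mice. In 3 luminal libraries no read of Tnfsf11 was counted. DESeq2 gave no adjusted p for Areg, Wnt4 and Rspo1 between parous basal genotypes or for Wnt4 and Rspo1 for parity in K8imTmG basal cells, and a mean of 50 removed Tnfsf11 or Rspo1 from several comparisons, so these have no value.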
